A study of Mus musculus with 16 samples.

Results

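Levels of hsa-miR-125b-5p and hsa-miR-100-5p, and with them hsa-miR-99b-3p, were followed in extracellular RNA of the human colorectal carcinoma line HCT116 after X-irradiation. The prefix hsa-, for human, is left out from here on. These microRNAs (miRNAs) were taken by name from the 16 arrays, as 3 of the 1205 human miRNAs that the array carries, and all 3 were among the 283 miRNAs that could be tested. The groups were supernatants of cells given 0, 2, 6 or 10 Gy at a high dose rate, each from 4 independent cultures with 1 array per culture. Cells of every group, the unirradiated ones included, grew on for 72 h in RPMI1640 that held fetal bovine serum at 10%. Mouse is the organism named in the labels, but HCT116 cells and the array's probe names are human, and the values were read accordingly. All groups came from 1 cell line, no array of medium alone was used here, and cell numbers were not given in the sources used here. Each array was labelled from 100 ng of RNA and scaled to its own signal, so a level is relative to the other RNA on that array. A lower level is therefore no measure of the RNA amount in a culture. Cell number, release per cell and RNA from serum cannot be told apart in it.

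miRNAs are short RNAs that pair with messenger RNAs through their seed, the bases near the 5′ end, and lower the output of those messages. Each miRNA hairpin yields a 5p and a 3p arm. In mammals, hairpins of the miR-99/100, let-7 and miR-125 families lie together in several genomic clusters. miR-100 lies with let-7a-2 and miR-125b-1, miR-99a with let-7c and miR-125b-2, and miR-99b with let-7e and miR-125a. miR-100-5p is known for its target MTOR, the kinase of a growth pathway. miR-125b-5p is the main arm of its hairpins and is widely expressed. miR-99b-3p is the other arm of the hairpin that gives miR-99b-5p, a relative of miR-100-5p.

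The mature sequences below are shown because the members carry different seeds and so belong to different seed families. They are RefSeq's mouse miRNAs of the same names (build GRCm38.p6), in which all 17 names of the 3 clusters had an entry. The mature forms of the 3 members are known to be the same in human and mouse, which was not checked here. Capitals mark the seed, bases 2 to 8 from the 5′ end.
miR-125b-5p: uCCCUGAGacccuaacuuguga
miR-125a-5p: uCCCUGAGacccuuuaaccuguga
miR-100-5p: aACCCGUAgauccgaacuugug
miR-99a-5p: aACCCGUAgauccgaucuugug
miR-99b-5p: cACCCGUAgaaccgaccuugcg
miR-99b-3p: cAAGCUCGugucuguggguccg
In the mouse genome miR-125b-5p is encoded at 2 places on the plus strand, chr9:41581940-41581961 and chr16:77646279-77646300, so its level cannot be assigned to 1 locus. miR-100-5p lies at chr9:41531437-41531458 and miR-99b-3p at chr17:17830232-17830253, both on the plus strand. miR-125b-5p shares its seed and its first 13 bases with miR-125a-5p. miR-100-5p shares its seed with miR-99a-5p and miR-99b-5p and differs from miR-99a-5p by 1 base (A16U, miR-100-5p first, counted from the 5′ end). miR-99b-3p shares a seed with neither of the other members. Each member is 22 bases long, with 11 G or C bases in miR-125b-5p and miR-100-5p and 14 in miR-99b-3p.

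Arrays detected 242 to 358 human miRNAs each, a count that did not pass an exact two-sided permutation test between any doses (smallest p = 0.143, adjusted 0.429). The labelling spike-in, an RNA added before labelling, was within the range set by the scanner software on 3 of 16 arrays, and the hybridisation control on all 16. The array of 0 Gy replicate 3 stood apart from the other 0 Gy arrays, and that of 2 Gy replicate 2 from the other 2 Gy arrays, in the levels of miR-125b-5p and miR-100-5p. Results that rest on these arrays are therefore given with and without them. The 0 and 2 Gy arrays shared 1 slide and the 6 and 10 Gy arrays another, so for 6 or 10 Gy against 0 or 2 Gy the dose and the slide cannot be told apart. All 5 miRNAs listed as epithelial markers were detected on at least 1 array, and 0 of them on all 16. Of 19 miRNAs listed for blood, stroma, muscle and liver, 8 were detected on at least 1 array and 11 never. Detected on all 16 arrays were 5 of them, miR-486-5p of red blood cells, miR-155-5p of white blood cells, miR-145-5p of stroma, and miR-133a-3p and miR-206 of muscle. Never detected were, among others, miR-451a of red blood cells, miR-142-3p and miR-223-3p of white blood cells, miR-143-3p of stroma and miR-1-3p of muscle.

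miR-125b-5p was lower in supernatant of irradiated cells at 2 and at 6 Gy than at 0 Gy, and its level at 10 Gy lay between. Levels are log2 of the processed signal divided by the array's 75th percentile, with a floor at -4.60, below which values have no order. At 0 Gy the 4 cultures gave 0.73, 0.91, -3.43 and 1.12 in the order of replicates 1 to 4. At 2 Gy they gave -4.60, -1.01, -4.60 and -4.60. At 6 Gy they gave -4.60, -2.14, -2.99 and -4.60, and at 10 Gy -1.73, -0.30, -0.84 and -2.76. Thus 3 unirradiated cultures lay above every irradiated one, the third fell among the irradiated ones, and 1 culture at 2 Gy lay far above its 3 neighbours at the floor. Its probe was detected on 4, 1, 3 and 4 of the 4 arrays in order of rising dose.

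The mean level of miR-125b-5p was -0.17 ± 2.18, -3.70 ± 1.79, -3.58 ± 1.22 and -1.41 ± 1.07 in order of rising dose (SD, n = 4 each). Against 0 Gy it fell by 3.53 on the log2 scale at 2 Gy (95% interval -5.82 to -1.25), or 11.6-fold, with an adjusted p of 0.0417 in limma. In that comparison 36 of 283 miRNAs passed the adjusted threshold of 0.05 (12.7%), 19 of them lower (6.71%) and 17 higher (6.01%). At 6 Gy it fell by 3.41 (-5.70 to -1.13), or 10.7-fold, with an adjusted p of 0.0407, where 55 of 283 miRNAs passed (19.4%), 38 of them lower (13.4%) and 17 higher (6.01%). The difference of -1.24 at 10 Gy (-3.52 to 1.05) did not pass (adjusted p = 0.502, limma), in a comparison in which 1 of 283 miRNAs did (0.353%). Ranked by fall among all 283, miR-125b-5p was number 1 at 2 Gy, number 1 at 6 Gy and number 4 at 10 Gy. The median difference over all of them was 0.03, 0.12 and -0.02. A miRNA can fall only to the floor, so such ranks depend on its level at 0 Gy. Levels of the groups overlapped in every comparison, and falls that reach the floor are understated. miR-125b-5p entered the test through 0 and 10 Gy, where all 4 arrays detected it. The calls of a fall from 0 Gy are therefore not independent of that filter. Without the filter on dim probes, 0 of 1205 miRNAs passed at 2 Gy and 0 at 6 Gy (limma).

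miR-100-5p followed miR-125b-5p across the arrays and was likewise lower at 2 and at 6 Gy than at 0 Gy. Its levels were -0.48, -0.56, -3.23 and -0.22 at 0 Gy and -4.60, -1.96, -4.60 and -4.60 at 2 Gy. They were -4.49, -2.55, -2.58 and -4.60 at 6 Gy and -2.23, -1.24, -1.81 and -3.37 at 10 Gy. The same 0 Gy culture was low and the same 2 Gy culture was high as for miR-125b-5p, and the groups overlapped in every comparison. The probe was again detected on 4, 1, 3 and 4 arrays at 0, 2, 6 and 10 Gy. Means were -1.12 ± 1.41, -3.94 ± 1.32, -3.56 ± 1.15 and -2.16 ± 0.90 (SD, n = 4 each).

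Against 0 Gy, miR-100-5p fell by 2.82 at 2 Gy (95% interval -4.52 to -1.12), or 7.05-fold, with an adjusted p of 0.0333 in limma. At 6 Gy it fell by 2.43 (-4.13 to -0.73), or 5.40-fold, with an adjusted p of 0.045 in limma. Its difference of -1.04 at 10 Gy (-2.74 to 0.66) did not pass (adjusted p = 0.466, limma). It was number 3, 7 and 10 in rank of fall among the 283 miRNAs at 2, 6 and 10 Gy. These ranks too depend on the level at 0 Gy. Like miR-125b-5p, miR-100-5p entered the test through 0 and 10 Gy, so its calls carry the same limit from the filter.

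**Figure D1:**
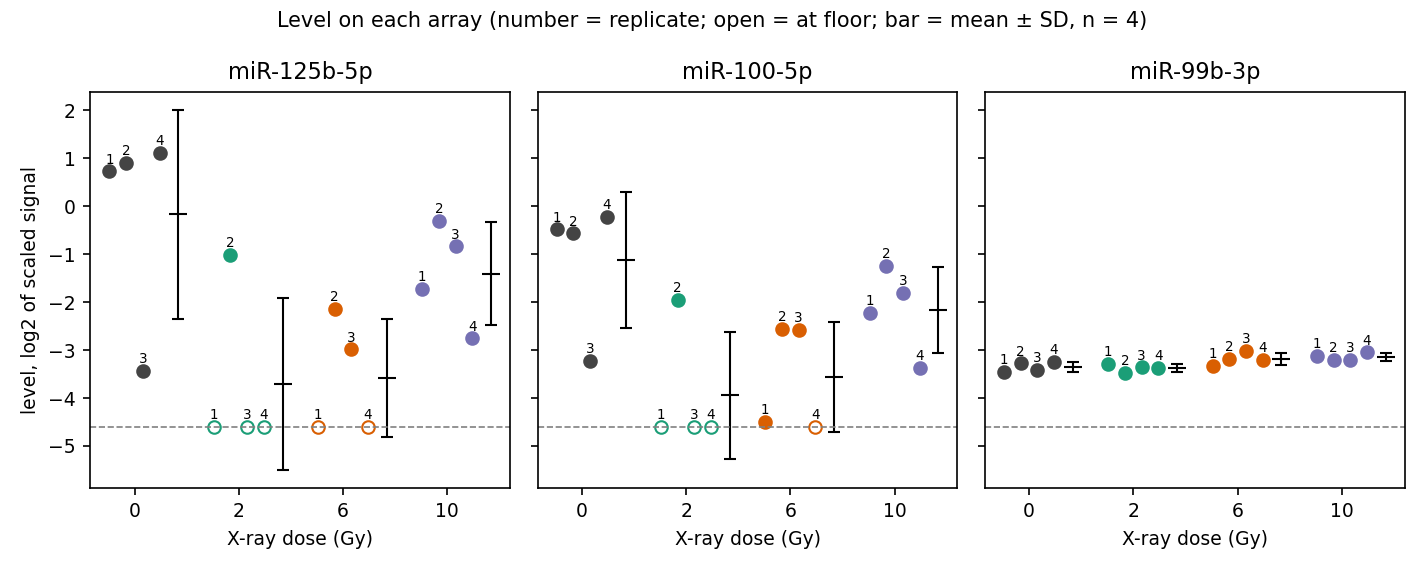
Level of each member on each array (log2 of scaled signal, vertical axis) by X-ray dose in Gy (horizontal axis). Numbers are replicates, open circles lie at the floor (dashed line at -4.60), and bars are the mean ± SD of 4 arrays. For miR-125b-5p and miR-100-5p, replicate 3 at 0 Gy and replicate 2 at 2 Gy stand apart from their groups, while miR-99b-3p stays between -3.47 and -3.01.

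miR-99b-3p was detected on all 16 arrays and varied little. Its levels were -3.46, -3.28, -3.42 and -3.24 at 0 Gy and -3.29, -3.47, -3.36 and -3.37 at 2 Gy. They were -3.33, -3.19, -3.01 and -3.21 at 6 Gy and -3.12, -3.20, -3.21 and -3.05 at 10 Gy. The 10 Gy arrays all lay above the 0 Gy arrays and above the 2 Gy arrays, and the other pairs of groups overlapped. At 10 against 0 Gy, 1 probe of miR-99b-3p overlapped (-3.29 at 10 Gy replicate 3, -3.21 at 0 Gy replicate 4), while its other probes separated. Levels of miR-155-5p and miR-486-5p separated at 10 against 0 Gy too, while those of let-7c-5p and miR-125a-3p overlapped. How many of all tested miRNAs separate was not counted, so the separation is not read as a result about miR-99b-3p. Means were -3.35 ± 0.10, -3.37 ± 0.08, -3.19 ± 0.13 and -3.15 ± 0.08 at 0, 2, 6 and 10 Gy (SD, n = 4 each).

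No comparison of miR-99b-3p with 0 Gy passed the threshold. The difference was -0.03 at 2 Gy (95% interval -0.21 to 0.16, adjusted p = 0.838 in limma) and 0.16 at 6 Gy (-0.02 to 0.34, adjusted p = 0.159 in limma). At 10 Gy it was 0.20 (0.02 to 0.38), with an unadjusted p of 0.0327 and an adjusted p of 0.182 in limma. Within the scaling used, these intervals do not reach the falls measured for the other members at 2 and 6 Gy. From a mean of -3.35 at 0 Gy to the floor at -4.60, miR-99b-3p could not have shown falls of that size. It lay at the floor on 0 of 16 arrays. The sign at 2 and at 10 Gy depended on the scaling: without scaling the differences were 0.084 and -0.036. At 6 Gy the difference passed with scaling over all probes (0.54, adjusted p = 0.0117), quantile normalization (0.40, adjusted p = 0.0233), Agilent's total signal (0.31, adjusted p = 0.0474) and the brightest probe alone (0.25, adjusted p = 0.0494). The median difference of all miRNAs was then 0.47, 0.22, 0.24 and 0.12, beside 0.12 in the setting used here. Over the alternatives tried at 6 Gy the adjusted p ran from 0.0117 to 0.871.

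**Figure D2:**
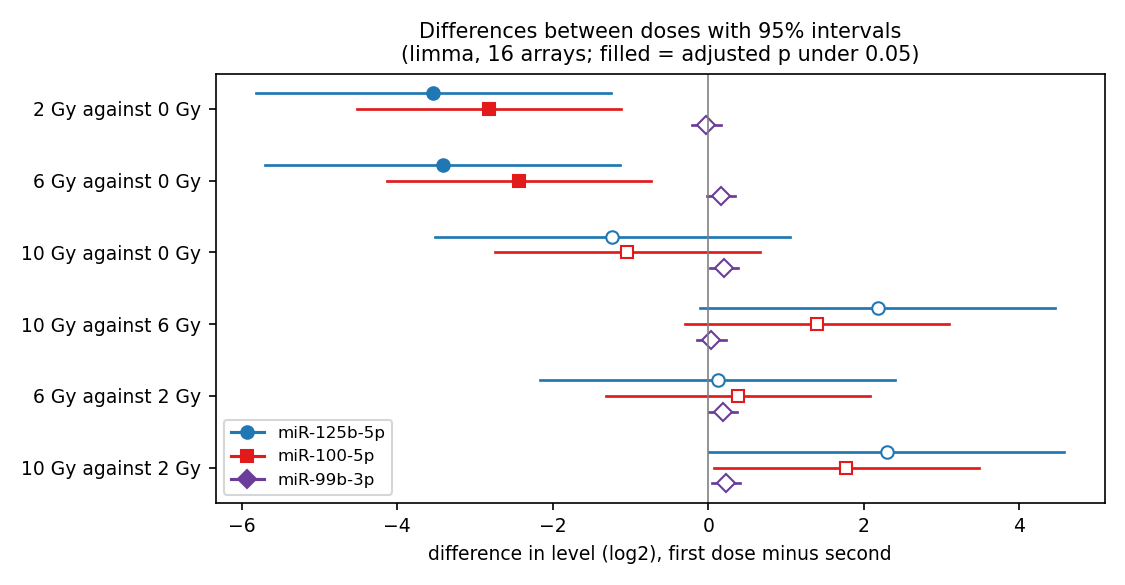
Difference in level between doses for the 3 members (log2, first dose minus second, horizontal axis) with 95% intervals from limma on 16 arrays, for 6 comparisons. Filled symbols have an adjusted p under 0.05. Only miR-125b-5p and miR-100-5p at 2 and 6 Gy against 0 Gy are filled, at -3.53, -3.41, -2.82 and -2.43, and the intervals of miR-99b-3p are the narrowest.

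The irradiated doses were also compared with each other. From 6 to 10 Gy, which shared a slide, miR-125b-5p was higher by 2.18 (95% interval -0.11 to 4.46) and miR-100-5p by 1.39 (-0.31 to 3.09), each with an adjusted p of 0.326 in limma. In that comparison 0 of 283 miRNAs passed in limma (0%), with 42 at an unadjusted p under 0.05. Same-numbered cultures of these doses deviated together, with correlations of 0.23, 0.72, 0.44 and 0.67 over the miRNAs, although the labels do not say what the numbers share. The 10 Gy array was the higher one in 4 of 4 numbers, by 2.87, 1.84, 2.15 and 1.84 for miR-125b-5p and by 2.27, 1.31, 0.77 and 1.23 for miR-100-5p. At 6 Gy miR-125b-5p lay at the floor in numbers 1 and 4, and miR-100-5p in number 4. The spread of these differences, and the SE below, is therefore not fully measured. The labelling spike-in (log2) was also higher at 10 Gy in each number: 6.85, 9.02, 7.58 and 6.06, against 1.67, 5.50, 5.95 and -2.32 at 6 Gy. With the number as a block on these 8 arrays, a choice made after seeing the data, miR-125b-5p was higher by 2.12 ± 0.18 (SE, adjusted p = 0.00623, limma) and miR-100-5p by 1.36 ± 0.25 (SE, adjusted p = 0.0292, limma). On these 8 arrays both members were detected on 3 of 4 at 6 Gy and 4 of 4 at 10 Gy, so that they entered the fit through the dose at which they were higher. In that blocked fit 60 of 255 miRNAs passed (23.5%), 33 of them higher (12.9%). Leaving out 1 number ended the call of miR-125b-5p only without number 3 (2.24, adjusted p = 0.0826, limma) and that of miR-100-5p without number 2 (1.38, adjusted p = 0.0789) or 3 (1.63, adjusted p = 0.0826). The count of calls over all miRNAs then ran from 2, without number 3, to 74, without number 4, and was 7 without number 1 and 22 without number 2. Over all alternatives without a left-out array, the adjusted p of this comparison ran from 0.00623 to 1 for miR-125b-5p and from 0.0292 to 1 for miR-100-5p. miR-99b-3p differed by 0.04 (adjusted p = 0.76, limma) and by 0.03 with the block (adjusted p = 0.811), with 2 numbers in each direction.

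Between 2 and 6 Gy, miR-125b-5p differed by 0.12 (95% interval -2.16 to 2.40), miR-100-5p by 0.38 (-1.32 to 2.08) and miR-99b-3p by 0.19 (0.00 to 0.37), 6 Gy minus 2 Gy. Their adjusted p-values in limma were 0.963, 0.961 and 0.839. From 2 to 10 Gy the differences were 2.30, 1.78 and 0.23, each with an adjusted p of 0.524 in limma. In each of these comparisons 0 of 283 miRNAs passed in limma (0%), with 14 and 20 at an unadjusted p under 0.05. limma's F test over the 4 doses gave an adjusted p of 0.092 for miR-125b-5p and for miR-100-5p and 0.144 for miR-99b-3p. That test called 0 of the 283 miRNAs in limma, with 91 at an unadjusted p under 0.05.

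The calls at 2 and 6 Gy depended on single arrays. Each of the 16 arrays was left out in turn. The fall of miR-125b-5p at 2 Gy ran from -4.41 to -3.02 and passed in 5 of 16 refits, those without 0 Gy replicate 3, 2 Gy replicate 2, 6 Gy replicate 2, 6 Gy replicate 4 or 10 Gy replicate 2. Its fall at 6 Gy ran from -3.88 to -2.96 and passed in 4, those without 0 Gy replicate 3, 2 Gy replicate 2, 6 Gy replicate 2 or 10 Gy replicate 4. The fall of miR-100-5p passed in 10 of 16 refits at 2 Gy (-3.45 to -2.31), and was lost without any 0 Gy array other than replicate 3 or any 2 Gy array other than replicate 2. At 6 Gy it passed in the same 4 refits as that of miR-125b-5p (-2.84 to -2.07). The direction was the same in every refit. The adjusted p in limma ran from 0.000309 to 0.138 for miR-125b-5p and from 0.000505 to 0.111 for miR-100-5p at 2 Gy, and from 0.000261 to 0.12 and from 0.000567 to 0.121 at 6 Gy.

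The array of 0 Gy replicate 3 decided the comparison at 10 Gy. Without it, miR-125b-5p fell by 1.88 (adjusted p = 0.00836, limma) and miR-100-5p by 1.80 (adjusted p = 0.0175, limma) at 10 Gy, while in the other 15 refits neither passed. Without both arrays that stood apart, miR-125b-5p fell by 3.38 at 2 Gy, 2.90 at 6 Gy and 1.83 at 10 Gy (adjusted p = 1.94e-05, 2.58e-05 and 0.000763, limma). The same differences of miR-100-5p were -3.29, -2.80 and -1.79 (adjusted p = 5.41e-05, 0.000105 and 0.00376, limma). The 2 arrays were chosen because they stood apart in these very levels, so the values describe the remaining arrays and are no separate evidence.

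**Figure D3:**
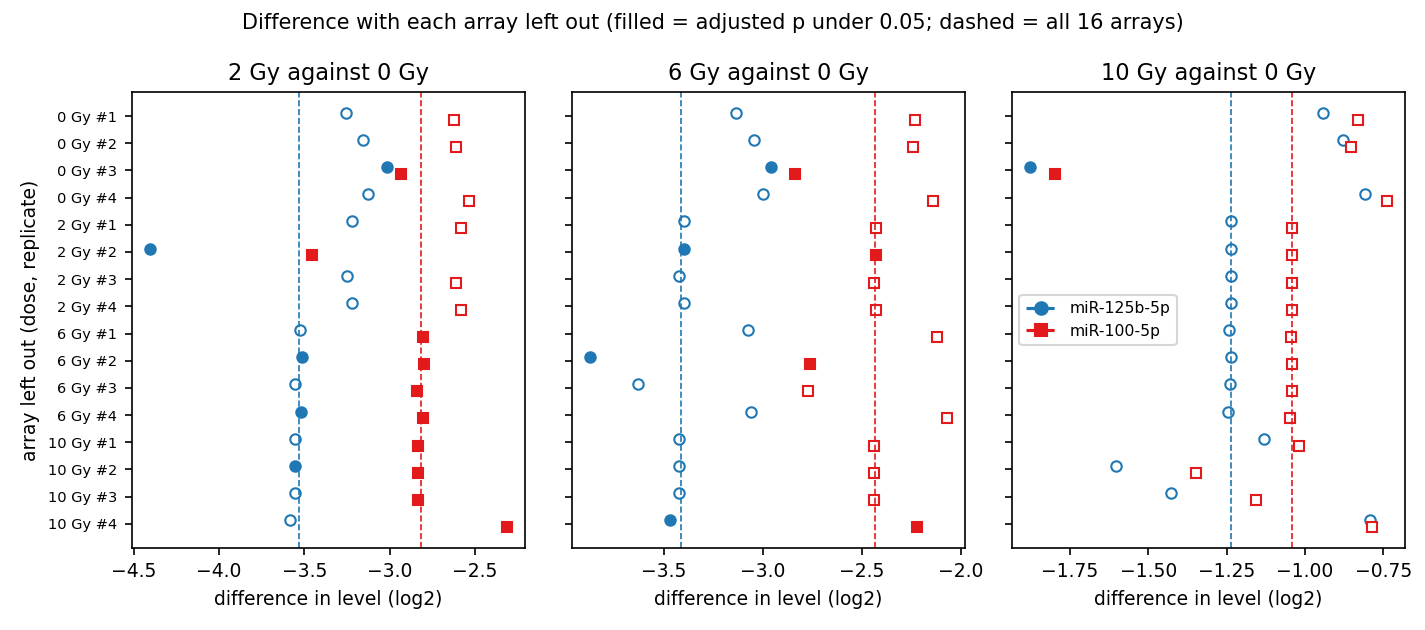
Difference from 0 Gy (log2, horizontal axes) at 2, 6 and 10 Gy for miR-125b-5p and miR-100-5p with each array left out in turn (vertical axis: dose and replicate left out). Filled symbols have an adjusted p under 0.05 and dashed lines give the value on 16 arrays. The differences stay below 0 throughout, while at 10 Gy only the refits without 0 Gy replicate 3 are filled.

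The levels of miR-125b-5p and miR-100-5p moved with the labelling spike-in. Its log2 signal was 6.35 ± 5.83, 4.82 ± 2.68, 2.70 ± 3.86 and 7.38 ± 1.26 in order of rising dose (SD, n = 4 each). The lowest value, -2.32, was that of 0 Gy replicate 3 and 6 Gy replicate 4, where neither spike-in RNA gave a signal. Between doses the smallest exact two-sided permutation p was 0.0286, the smallest that 4 against 4 arrays allow, for 10 against 6 Gy (a difference of 4.68, adjusted p = 0.171). At 2 and at 6 Gy against 0 Gy the spike-in differed by -1.53 and -3.65 (exact permutation p = 0.629 and 0.343).

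Over the 16 arrays, Pearson's r with the spike-in was 0.76 for miR-125b-5p (permutation p = 0.00047, adjusted over the 3 members 0.0013) and 0.74 for miR-100-5p (p = 0.00086, adjusted 0.0013). Spearman's rho was 0.88 (permutation p = 4e-05, adjusted 0.00012) and 0.85 (p = 9e-05, adjusted 0.00013). When the 2 most extreme spike-in values were left out, r was 0.85 for each. Within the slide of 0 and 2 Gy, r was 0.71 and 0.66 (n = 8, exact permutation p = 0.046 and 0.077), and within that of 6 and 10 Gy 0.90 and 0.92 (n = 8, exact permutation p = 0.00035 for each). Within doses, the deviations from the dose means correlated at 0.83 for each. For miR-99b-3p, r was 0.09 (permutation p = 0.73) and rho -0.01 (permutation p = 0.96), with 0.08 and 0.36 within the slides (exact permutation p = 0.84 and 0.37).

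With the spike-in signal as a covariate, miR-125b-5p fell by 2.99 at 2 Gy (adjusted p = 0.00592, limma) and by 2.12 at 6 Gy (adjusted p = 0.0525). miR-100-5p fell by 2.41 at 2 Gy (adjusted p = 0.00397, limma) and by 1.47 at 6 Gy (adjusted p = 0.0656). From 6 to 10 Gy the differences became 0.52 for miR-125b-5p (adjusted p = 0.868, limma) and 0.16 for miR-100-5p (adjusted p = 0.946). Thus both members still passed at 2 Gy and neither did at 6 Gy, and the differences from 6 to 10 Gy became smaller. Within the slide of 0 and 2 Gy alone, the differences at 2 Gy were -3.52 and -2.81, with adjusted p of 0.127 and 0.101 in limma.

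**Figure D4:**
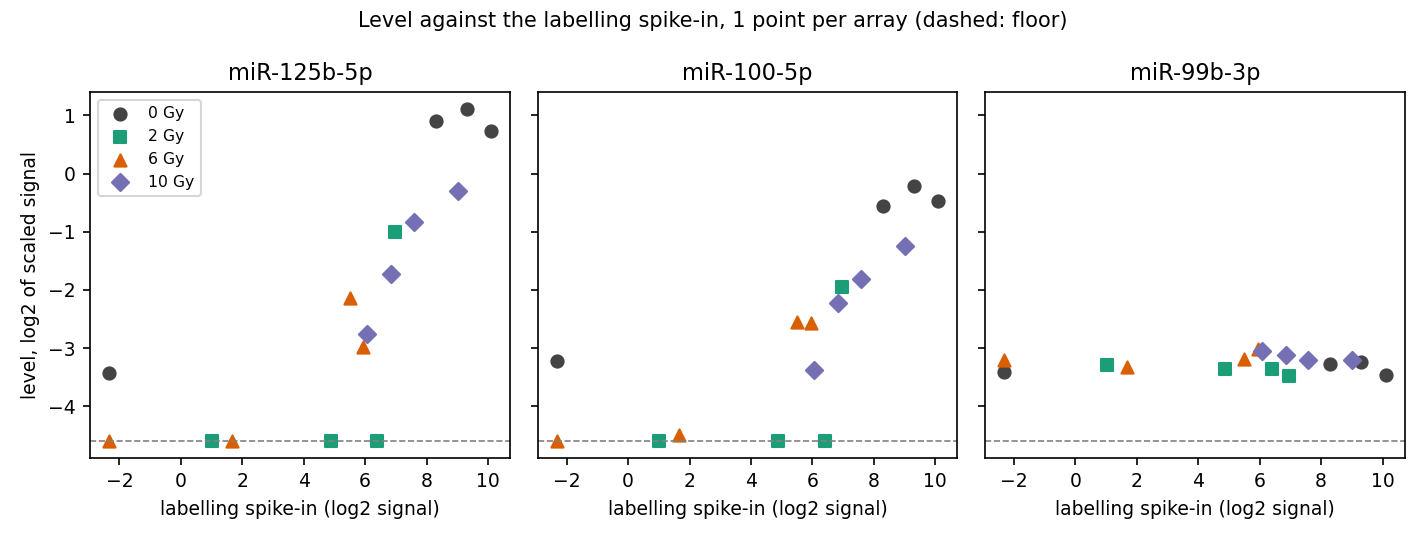
Level of each member (log2 of scaled signal, vertical axis) against the log2 signal of the labelling spike-in (horizontal axis), 1 point per array, with colour and shape for dose and a dashed line at the floor. miR-125b-5p and miR-100-5p are higher on arrays with more spike-in signal (r of 0.76 and 0.74), and miR-99b-3p lies flat (r of 0.09).

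The members were also set against each other on each array. The levels of miR-125b-5p and miR-100-5p correlated at r = 0.99 over the 16 arrays and at 0.98 in their deviations from the dose means. On 3 arrays at 2 Gy and 1 at 6 Gy both were set to the floor, so their levels there are equal by construction. Each correlated with miR-99b-3p near 0 (r = -0.02 and 0.02). These are descriptions over arrays that share RNA, labelling and scaling. The difference between 2 members on an array was compared between doses in 12 exact two-sided permutation tests. None passed after adjustment, the smallest adjusted p being 0.171. miR-125b-5p minus miR-99b-3p was 3.18 ± 2.13 at 0 Gy and -0.33 ± 1.86 at 2 Gy (exact permutation p = 0.0571, n = 4 each), and -0.40 ± 1.16 at 6 Gy (p = 0.0857). For miR-100-5p minus miR-99b-3p the values were 2.23 ± 1.37, -0.57 ± 1.39 and -0.37 ± 1.06, with the same exact permutation p-values. The smallest possible p is 0.0286, and at least 7 of the 12 tests would have had to reach it to pass 0.05 after adjustment. The failure to pass therefore says little about whether the members responded alike. miR-125b-5p minus miR-100-5p was 0.95 ± 0.77, 0.24 ± 0.47, -0.03 ± 0.34 and 0.76 ± 0.23 at 0, 2, 6 and 10 Gy, with the smallest exact permutation p for 10 against 6 Gy (0.0286, adjusted 0.171). This difference is held near 0 by the floor: it was exactly 0 on 3 arrays at 2 Gy and 1 at 6 Gy, where both lay at the floor, and on another 6 Gy array miR-125b-5p lay there. The low values at 2 and 6 Gy and that p are therefore not read as unequal change of these members.

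Within-dose SDs of level were 1.63 for miR-125b-5p, 1.21 for miR-100-5p and 0.099 for miR-99b-3p, ranks 2, 7 and 268 of 283 from the largest, with a median of 0.23 over all. Signal over background differed as well. Before scaling, the miR-125b-5p probe averaged 651 ± 455, 95.01 ± 161, 49.9 ± 59.7 and 188 ± 126 units of processed signal in order of rising dose (SD, n = 4 each). That of miR-100-5p averaged 263 ± 150, 54.6 ± 80.3, 47.6 ± 43.2 and 106 ± 61.4. The 4 probes of miR-99b-3p averaged 46.5 ± 12.2, 48.8 ± 10.3, 61.3 ± 12.1 and 44.7 ± 8.03. These signals follow each probe's own response and do not rank the miRNAs by abundance.

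miR-125b-5p and miR-100-5p each had 2 probes, of which only the brighter entered the level. The dimmer probe of miR-125b-5p was detected on 3 arrays, where the brighter one was 12.9 to 19.2 times as bright. The dimmer probe of miR-100-5p was detected on 8 arrays, at a ratio of 2.83 to 3.81. All 4 probes of miR-99b-3p were detected on 16 arrays and differed by 1.06 to 1.24 times at most on an array.

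Of the 17 names in the 3 clusters, 16 were on the array, 9 were detected on at least 1 array and 5 were tested. The other tested ones were let-7c-5p, of the cluster with miR-99a, and miR-125a-3p, of the cluster with miR-99b. let-7c-5p, a member of the tumour-suppressive let-7 family, was lower by 2.24 at 6 Gy than at 0 Gy (adjusted p = 0.0407, limma). Its differences of -1.55 at 2 Gy and -0.74 at 10 Gy did not pass (adjusted p = 0.122 and 0.53, limma). miR-125a-3p differed by 0.08, 0.31 and 0.23 at 2, 6 and 10 Gy (adjusted p = 0.602, 0.0538 and 0.221, limma). So at 6 Gy 3 of the 5 tested cluster miRNAs passed lower and 0 higher, and at 2 Gy 2 of 5, beside 13.4% and 6.71% lower over all 283. The median difference over the 5 was -1.55 at 2 Gy, -2.24 at 6 Gy and -0.74 at 10 Gy, beside 0.03, 0.12 and -0.02 over all tested. These are descriptions, since miRNAs entered the test through a dose at which all 4 arrays detected them, for miR-125b-5p and miR-100-5p 0 and 10 Gy.

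The other arms of the hairpins and the seed relatives were detected on fewer arrays than all 16, apart from miR-125a-3p. miR-125b-1-3p, the other arm of a miR-125b hairpin, was detected on 10 arrays (2, 3, 2 and 3 at 0, 2, 6 and 10 Gy), with signals of 9.47 to 55.4. At 2 Gy it was thus detected on more arrays than miR-125b-5p. miR-125b-2-3p and miR-100-3p, which mark the other hairpins, were detected on 0 of 16 arrays. miR-99b-5p, which shares its seed with miR-100-5p, was detected on 10 arrays (3, 2, 2 and 3), with signals of 8.76 to 64.6. let-7a-5p, made from several hairpins, was detected on 7 arrays (3, 1, 1 and 2). miR-125a-5p, which shares the seed of miR-125b-5p, was detected on 2 arrays, both at 0 Gy, with signals of up to 18.1. miR-99a-5p, which differs from miR-100-5p by the base printed above, was detected on 0 arrays, with signals of -1.90 to 3.27. Also never detected were miR-99a-3p, let-7c-3p, let-7e-5p and let-7e-3p.

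**Figure D5:**
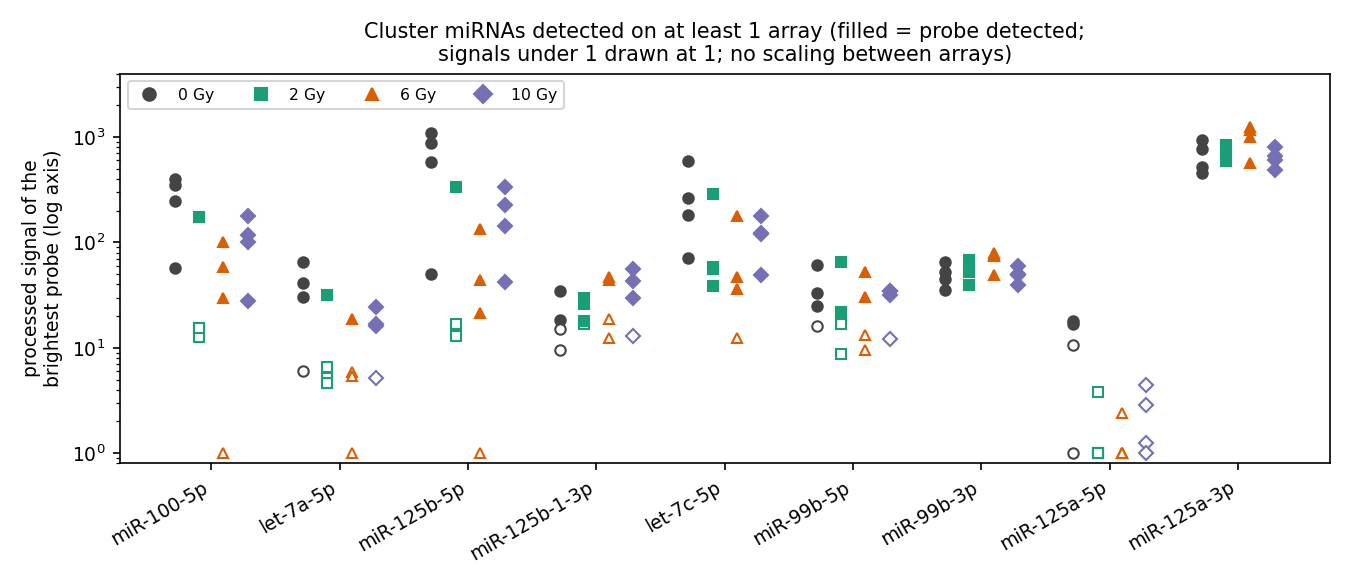
Processed signal of the brightest probe (log axis, unscaled) on each of 16 arrays for the 9 cluster miRNAs detected on at least 1 array, by dose. Filled symbols mark arrays where the probe was detected, and signals under 1 are drawn at 1. miR-125b-5p, miR-100-5p and let-7c-5p spread over a wide range, whereas miR-99b-3p and miR-125a-3p were detected on all 16 arrays.

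The 5 miRNAs whose levels over the 16 arrays were most like that of miR-125b-5p were miR-25-3p (r = 0.993), miR-100-5p (0.989), miR-200c-3p (0.983), miR-361-5p (0.980) and miR-221-3p (0.973). For miR-100-5p they were miR-125b-5p (0.989), miR-25-3p (0.984), miR-200c-3p (0.971), miR-361-5p (0.967) and miR-221-3p (0.962). The correlation exceeded 0.9 for 28 miRNAs with miR-125b-5p and for 22 with miR-100-5p, while its median over all was -0.32 and -0.33. For miR-99b-3p the 5 nearest were miR-422a (0.716), miR-155-5p (0.685), miR-939-5p (0.680), miR-572 (0.644) and miR-3620-3p (0.638), and none exceeded 0.9. In deviations from the dose means these values were 0.93 to 0.99 for the nearest of miR-125b-5p and miR-100-5p and 0.49 to 0.70 for those of miR-99b-3p. The nearest of miR-125b-5p and miR-100-5p lay at the floor on 1 to 5 arrays each, where the level is set and not measured.

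Markers of cell types were read beside these patterns, as the sum of scaled signals over each list. For the 5 epithelial miRNAs the sum ranged over 0.492 to 3.93, 0.497 to 2.92, 0.0225 to 1.14 and 0.756 to 1.87 in order of rising dose, with medians of 3.11, 0.709, 0.514 and 1.52. For the 19 miRNAs of other cell types it was 0.651 to 0.908, 0.627 to 0.651, 0.634 to 0.809 and 0.675 to 0.773. Within these 19, the 5 stroma miRNAs summed to 0.115 to 0.422, 0.1005 to 0.192, 0.0468 to 0.235 and 0.1499 to 0.236, with medians of 0.226, 0.117, 0.166 and 0.211. The only one of them detected, miR-145-5p, differed from 0 Gy by -0.77 at 2 Gy, -0.64 at 6 Gy and -0.26 at 10 Gy (adjusted p = 0.141, 0.176 and 0.69, limma). The epithelial and the stroma medians were thus lower at 2 and 6 Gy than at 0 Gy, with 10 Gy between 0 and 6 Gy. Liver medians were too (0.0454, 0.0365, 0.0330 and 0.0388). Those of red blood cells (0.0772, 0.0835, 0.0906 and 0.0948) and white blood cells (0.154, 0.173, 0.186 and 0.173) were higher. Muscle medians were 0.230, 0.230, 0.253 and 0.193. At 6 Gy miR-155-5p was higher by 0.31 (adjusted p = 0.0407, limma). miR-200c-3p (-2.50, adjusted p = 0.0514, limma) and miR-141-3p (-2.07, 0.057) did not pass there. The part of these lists in the results was not tested.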

How the data were processed

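Each of the 16 deposited files holds 1 Agilent miRNA array in a single colour, read with version 11.5.1.1 of Feature Extraction, per its header. Its processed intensity is background-subtracted and unscaled between arrays, per the file headers, and the deposited flags (other values of 0 or 1) mark detection and outlier spots. Small RNA from supernatant was labelled with Cy3 from 100 ng, per the labels' protocols.

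Spots marked as controls or outliers were dropped, and a probe's other spots averaged. Detection of a probe on an array required well-above-background flags on more than 0.5 of its spots. Each array was divided by its own 75th percentile of the 518 probes that every array detected. Values under 0.0412 (log2 of -4.60) were set to that floor, which is the 5th percentile of an array's detected probes, taken as the median array, and log2 followed. Probes detected throughout the 4 arrays of some dose entered (592 probes of 283 miRNAs), and a miRNA's level is their mean. A mean per dose was fitted in R 4.3.3 by limma 3.58.1 (lmFit, eBayes) on 16 arrays, with Benjamini-Hochberg adjustment over 283 miRNAs and a threshold of 0.05. Permutation tests were exact for 4 against 4 or 8 arrays, and used 100000 resamples for 16. The fit was tested on simulated data.

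Same-numbered arrays correlated over 0.1 in all 4 numbers between 6 and 10 Gy only, and the number was used as a block there. Those arrays also shared a slide and a row on it, so the correlations do not show that the cultures were paired. What the numbers share is not given in the labels. Over 24 same-numbered pairs of doses the correlation ran from -0.76 to 0.87. Named were the members, every cluster relative detected on at least 1 array (the others by name or count), and the 5 miRNAs nearest to each member. The members and lists were chosen with earlier results of these data known.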

Additional observations from a re-analysis of the deposited data

Results flagged for a closer look

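In 11 of 32 groups of 4 arrays checked, 1 array lay farther from the others than Dixon's 95% limit for 4 samples, where chance gives about 1 in 20 groups. They are not independent, since all 11 come from 2 arrays and the measures share members. On the array of 0 Gy replicate 3, miR-125b-5p was at -3.43, miR-100-5p at -3.23 and the labelling spike-in at -2.32 (log2). On the same array the level of miR-125b-5p minus that of miR-100-5p was -0.20, minus that of miR-99b-3p -0.0122, and miR-100-5p minus miR-99b-3p was 0.19. On the array of 2 Gy replicate 2, miR-125b-5p was at -1.01 and miR-100-5p at -1.96, and the same differences were 0.94, 2.46 and 1.52. At 2 Gy the other 3 arrays lay at the floor for miR-125b-5p and miR-100-5p, so that their own spread was not measured. The rate of 1 in 20 does not hold for the flagged 2 Gy groups, where the floor held those 3 arrays together.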

How the results depend on the processing

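At 2 and 6 Gy against 0 Gy, miR-125b-5p and miR-100-5p were lower in every alternative run. The calls were lost without scaling (-3.34 and -2.62 at 2 Gy, -3.36 and -2.28 at 6 Gy), with a floor 2 times as high (-2.78, -2.07, -2.91 and -1.96) and without a filter on dim probes (-2.31, -2.27, -2.25 and -2.17, which adds dim probes and tests more miRNAs). They were also lost on 1 slide alone at 2 Gy (-3.52 and -2.81, fewer arrays), with the spike-in as covariate at 6 Gy (-2.12 and -1.47), and with Agilent's total signal for miR-125b-5p at 2 Gy (-3.75). Without the 2 arrays that stood apart, 10 against 0 Gy passed (-1.83 and -1.79), as did miR-125b-5p at 10 against 2 Gy (1.54). The replicate block on 16 arrays changed no call of the 3 members and took the calls over all miRNAs from 36 to 68, 55 to 75 and 1 to 7 at 2, 6 and 10 Gy against 0 Gy. On the 8 arrays of 6 and 10 Gy it gave 2.12 and 1.36, both past the threshold. Of the 16 arrays, 5 correlated best with one of their own number.

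miR-99b-3p at 6 Gy passed with scaling over all probes (0.54), quantile normalization (0.40), Agilent's total signal (0.31) and the brightest probe alone (0.25), and was -0.031 after normexp. At 2 Gy its sign turned without scaling (0.084), with scaling over all probes (0.37), quantile normalization (0.25), Agilent's total (0.078), the brightest probe (0.033) and 1 slide (0.030). At 10 against 6 Gy it turned without scaling (-0.45), over all probes (-0.14), by quantile (-0.042) and by Agilent's total (-0.087), and without scaling also at 10 against 0 Gy (-0.036) and 2 Gy (-0.12). For 6 against 2 Gy, miR-125b-5p turned without scaling (-0.017), after normexp (-0.065) and with the raised floor (-0.13). Where no construction is named, the cause was not tested.

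With 1 array left out, the differences from 0 Gy ran from -4.41 to -3.02, -3.88 to -2.96 and -1.88 to -0.79 for miR-125b-5p at 2, 6 and 10 Gy, and from -3.45 to -2.31, -2.84 to -2.07 and -1.80 to -0.74 for miR-100-5p. miR-99b-3p ran from -0.059 to 0.011 at 2 Gy, and from -0.0079 to 0.10 for 10 against 6 Gy. miR-125b-5p ran from -0.36 to 1.01 for 6 against 2 Gy. The tests between members passed in no alternative.

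Scaling and background correction moved the share of higher calls over all miRNAs. At 2 Gy the 17 higher and 19 lower calls became 111 and 18 when all probes set the scale, 55 and 16 by quantile, 7 and 12 after normexp (a background correction), and 0 without scaling (limma, 36 at an unadjusted p under 0.05). At 6 Gy the 17 and 38 became 148 and 29, 92 and 35, 8 and 26, and 0 (62 unadjusted). At 10 Gy the 1 higher call became 20 higher and 2 lower, 25 and 2, 0 (37 unadjusted), and 0 (22 unadjusted). The 36, 55 and 1 calls in all at 2, 6 and 10 Gy became 29, 9 and 8 with the raised floor, 74, 29 and 59 with the spike-in covariate, 187, 205 and 120 without the 2 arrays that stood apart, and 2 at 2 Gy on 1 slide alone. Signal over background limits miR-125b-5p and miR-100-5p at 2 and 6 Gy, where they were at the floor on 5 and 4 arrays.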
